A study of Mus musculus with 14 samples.

Results

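The replication and S phase genes are a set of 52 genes chosen by symbol, all of which were present among the 18355 genes of the normalised table and reached the minimum mean of 10 normalised counts that 15565 genes passed. Their transcripts were measured in cells from 8-day-old mouse brain (postnatal day 8), captured either on CD140a (Pdgfra) microbeads, which bind oligodendrocyte precursor cells (OPCs), or on O4 microbeads, which bind immature oligodendrocytes. Controls were 2afl/fl mice, with loxP sites around Mfsd2a, the lysophosphatidylcholine transporter gene. The 2aOKO mice carry the same floxed alleles and the Pdgfra-cre transgene C57BL/6-Tg(Pdgfra-cre)1Clc/J, so that Cre is made in cells in which the Pdgfra promoter is active. Each sort had 3 libraries from 2afl/fl and 4 from 2aOKO mice, 14 in all, and values below are listed in the order of the replicate numbers.

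A cell that is to divide copies its genome once, in S phase. In G1 the origin recognition complex, Cdc6 and Cdt1 load the Mcm2-7 helicase onto DNA (licensing), and in S phase Cdc45 and the GINS complex switch it on, polymerases copy both strands, and a sliding clamp holds them in place. Nucleotides and histones must be supplied at the same time, and a checkpoint watches the forks. Many of these genes are transcribed in a burst at the G1 to S border under E2F transcription factors. OPCs divide in the postnatal brain, and they leave the cycle as they differentiate into oligodendrocytes.

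Promoters of members were searched for the E2F motifs TTTCCCGC, TTTCGCGC, TTTGCCGC and TTTGGCGC on either strand. The RefSeq windows run from 250 bases before to 50 after a transcription start, in GRCm38.p6, an earlier build than the mm39 of the expression files. Windows were at hand for 41 of the 52 members, and 16 of these (39%, exact 95% binomial interval 24.2% to 55.5%) held a motif, against 547 of 12277 tested genes with a window (4.46%) and 704 of all 27025 genes with one (2.60%). Of the other replication and S phase genes on a comparison list 14 of 39 with a window did (35.9%), and of the G2 and mitosis genes 1 of 26 (3.85%). The windows below belong to the 4 members with a window and the smallest p between the sorts in 2afl/fl mice, and capitals mark the motif on either strand. They lie at chr4:116627902-116628201 on the - strand (Nasp), chr17:56304063-56304362 on the + strand (Uhrf1, the second of 2 windows), chr7:13278576-13278875 on the + strand (Lig1, the second of 3 windows) and chr7:44548766-44549065 on the - strand (Pold1).
Nasp: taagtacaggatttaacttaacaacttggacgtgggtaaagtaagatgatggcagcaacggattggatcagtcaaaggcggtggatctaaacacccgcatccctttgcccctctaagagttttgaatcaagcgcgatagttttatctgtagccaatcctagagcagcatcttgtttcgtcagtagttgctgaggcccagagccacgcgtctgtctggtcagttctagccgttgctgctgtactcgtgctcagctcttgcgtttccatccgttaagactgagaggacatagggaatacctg
Uhrf1: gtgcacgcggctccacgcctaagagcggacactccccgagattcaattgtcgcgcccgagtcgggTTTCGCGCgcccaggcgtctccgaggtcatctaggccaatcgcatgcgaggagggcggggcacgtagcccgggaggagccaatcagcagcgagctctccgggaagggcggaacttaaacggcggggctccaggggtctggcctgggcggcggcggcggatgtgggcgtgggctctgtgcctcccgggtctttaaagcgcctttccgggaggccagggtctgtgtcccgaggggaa
Lig1: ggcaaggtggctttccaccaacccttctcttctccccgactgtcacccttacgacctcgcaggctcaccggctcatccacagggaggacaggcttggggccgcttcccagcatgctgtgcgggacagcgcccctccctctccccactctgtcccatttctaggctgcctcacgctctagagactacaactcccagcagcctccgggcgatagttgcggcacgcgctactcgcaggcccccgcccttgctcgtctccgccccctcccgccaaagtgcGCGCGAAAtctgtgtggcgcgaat
Pold1: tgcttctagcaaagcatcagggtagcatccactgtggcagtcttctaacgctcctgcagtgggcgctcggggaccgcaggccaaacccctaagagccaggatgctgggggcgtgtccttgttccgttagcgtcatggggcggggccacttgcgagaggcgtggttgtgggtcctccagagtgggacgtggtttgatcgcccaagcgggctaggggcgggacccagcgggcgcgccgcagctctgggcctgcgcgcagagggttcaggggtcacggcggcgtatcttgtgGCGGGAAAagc
Uhrf1 held TTTCGCGC, 185 bases before the start. In Lig1 the same motif lay on the opposite strand 26 bases after the start, and in Pold1 TTTCCCGC lay on the opposite strand 39 bases after it. The Nasp window and the other windows of Uhrf1 and Lig1 held none of these letters. The most matches stood in Mcm6, with 3. Mcm3, Mcm5, Mcm7 and Rfc3 had 2 each. Between the sorts the 16 members with a motif had a median log2 difference of -0.63 (range -0.84 to -0.02) in 2afl/fl mice, and the 25 members with a window and no motif had -0.45 (-0.89 to 0.21). In 2aOKO mice the medians were -0.605 and -0.561. At an adjusted p under 0.05 in limma 13 of 16 and 17 of 25 fell in 2afl/fl mice, against 12.2% of all genes. In 2aOKO mice 13 of 16 and 21 of 25 fell, against 15.5%. Of the 11 members with no window 7 fell in each genotype. A match is a description of the letters and does not show that a factor binds there.

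Before the results, the libraries. Normalised totals ran from 34120800 to 41030200, with 16964 to 17662 genes above 0. On the first principal component (48.7% of the variance) the sorts lay apart. The 2afl/fl O4 library 2 lay between them, at 13.96 against 49.0 and 53.0 for the other libraries of its group. Its summed level of 8 myelin genes was 351072, against 898473 and 1364200. The counts between the sorts and the genotype results in O4 cells are given with and without it, as are the 2afl/fl calls between the sorts that changed when it was left out. Mfsd2a was at 7585 to 16343 in 2afl/fl OPCs and 3665 to 7188 in 2aOKO OPCs, and at 6762 to 12885 and 3615 to 7101 in the O4 sorts. Neither difference passed the test.

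Taken over the members, the O4 sorts held less replication RNA than the OPC sorts in both genotypes. In 2afl/fl mice 51 of 52 members had a lower mean in O4 cells, 37 fell at an adjusted p under 0.05 in limma, and 0 rose, with a median log2 difference of -0.57 (0.672-fold). Over all genes tested the median was -0.01, and 12.2% of genes fell and 14.3% rose. In 2aOKO mice 51 of 52 were again lower, 41 fell and 1 rose, with a median of -0.57 (0.675-fold). Over all genes the median there was -0.02, and 15.5% fell and 17.6% rose. The members that fell in both genotypes numbered 35, and 8 passed in neither. In 2afl/fl mice 37 members had all O4 values below all OPC values, against 16.5% of genes, and in 2aOKO mice 45 did, against 19.0%. Members made up 0.205% to 0.238% of the total in 2afl/fl OPCs, 0.193% to 0.212% in 2aOKO OPCs, 0.107% to 0.188% in 2afl/fl O4 cells and 0.110% to 0.144% in 2aOKO O4 cells. In bulk samples, fewer cells in S phase and less of these RNAs per cell cannot be told apart.

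**Figure D1:**
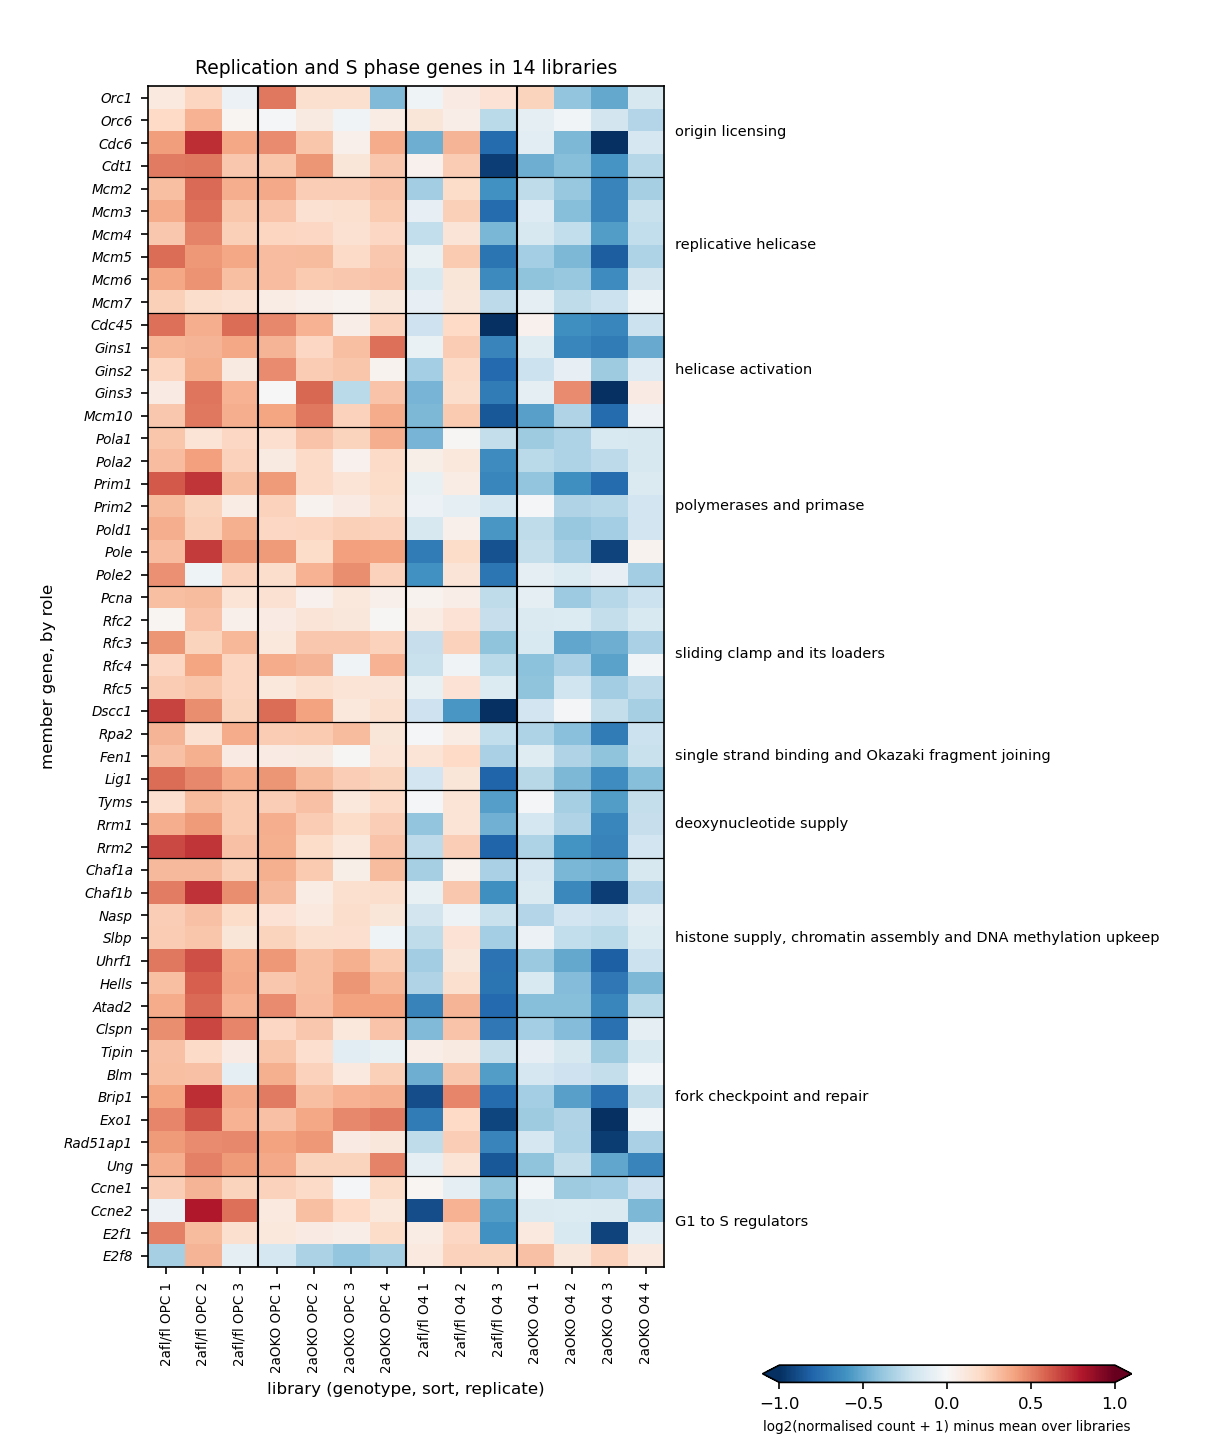
Level of each of the 52 members (rows, by role) in each of the 14 libraries (columns), as log2(normalised count + 1) minus the gene's mean over the libraries. Red is above and blue below that mean, with colours ending at 1 and -1. The 7 OPC libraries are mostly red, the 2afl/fl O4 library 2 is pale red while the rest of the O4 libraries are blue, and E2f8 runs the other way.

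The size of the 2afl/fl count depended on single libraries. It was 44 without O4 library 2 (median -0.78), all 37 called with it among them, and 18.3% of all genes fell. The 7 added were Gins1, Gins2 and Pole2 (adjusted p = 0.0135, 0.00342 and 0.00324 in limma), Rfc5 and Rpa2 (0.0101 and 0.0256), and Tyms and Blm (0.0215 and 0.00111), at -0.72, -0.77, -0.88, -0.36, -0.42, -0.53 and -0.69 on the log2 scale in that order. The count was 14 without O4 library 3 (median -0.39), where 8.27% of all genes fell. Without OPC library 1, 2 or 3 it was 20, 21 and 22, against 8.81%, 9.03% and 7.5% of all genes. Without O4 library 1 it was 22, against 6.6%. With only the 6 libraries of 2afl/fl mice in the fit 1 member, Uhrf1, remained. Calls were few over all genes in that fit, where 1.41% fell. With any 1 library left out the 2aOKO count ran from 29 (without 2aOKO O4 library 3) to 44 (without 2afl/fl O4 library 2). Of all genes 11.7% and 17.4% fell in these fits. The count was 46 with only the 8 libraries of 2aOKO mice, against 19.6% of all genes. Of the 37 calls in 2afl/fl mice 36 were lost under at least 1 of 24 alternatives. Of the 42 calls in 2aOKO mice 12 were.

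The G2 and mitosis genes, a list of 30, moved with the members. Of these 29 fell in 2afl/fl and 30 in 2aOKO mice, with medians of -0.90 and -0.94, further from 0 than the members' medians. Cenpf, a kinetochore protein, was at -1.08 ± 0.21 (SE) in 2afl/fl and -1.05 ± 0.18 in 2aOKO mice. The mean level per library of the members, as log2 difference from each gene's mean over libraries, was 0.33, 0.42 and 0.26 in 2afl/fl OPCs and -0.23, 0.15 and -0.55 in 2afl/fl O4 cells. In 2aOKO mice it was 0.27, 0.23, 0.16 and 0.21 in OPCs and -0.20, -0.32, -0.53 and -0.21 in O4 cells. Every O4 library was below every OPC library, with 2afl/fl O4 library 2 the nearest.

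**Figure D2:**
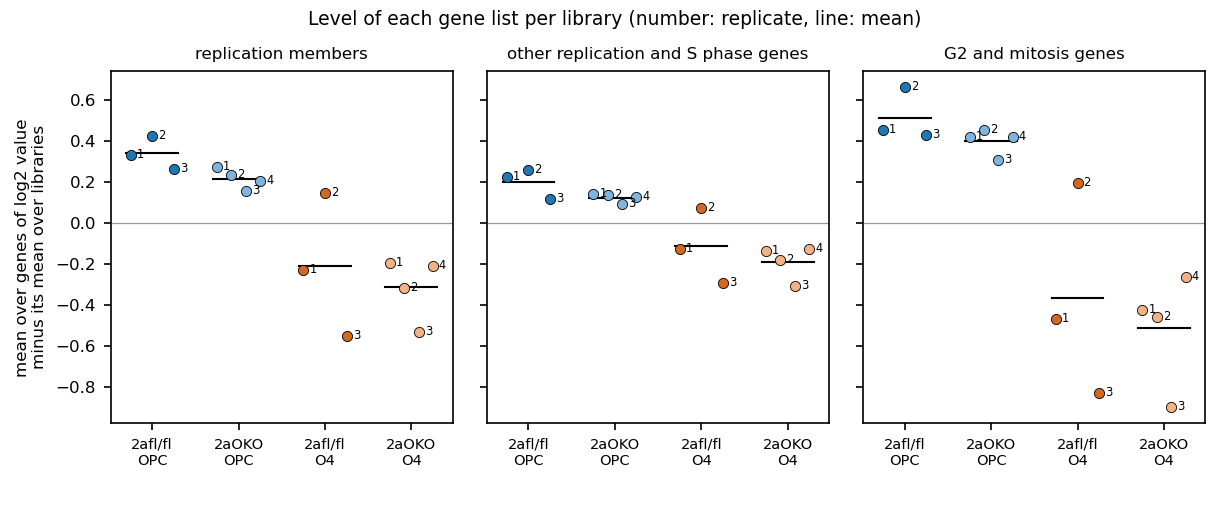
Mean over the genes of each list of log2(normalised count + 1) minus the gene's mean over libraries, 1 point per library with its replicate number, and the group mean as a line. The members (left, 52 genes), the other replication and S phase genes (middle, 48) and the G2 and mitosis genes (right, 30) are lower in O4 cells, with the 2afl/fl O4 library 2 at 0.15, 0.07 and 0.20.

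Markers of other cells differed between the sorts as well. For scale, 12.2% of all genes fell and 14.3% rose in 2afl/fl mice, and 15.5% and 17.6% in 2aOKO mice. Of 10 microglia genes 8 rose in O4 cells of 2afl/fl and 9 in those of 2aOKO mice, with summed levels of 3143 to 5030 in all OPC libraries and 7459 to 12361 in all O4 libraries. Of 6 fibroblast genes 5 fell in each genotype, from 24501 to 40352 down to 8887 to 17886. Of 6 border macrophage genes 4 and 5 rose, from sums of 249 to 338 to sums of 1135 to 1538. None of these markers was at 0 in an O4 library. Of 8 OPC genes 4 fell in 2afl/fl mice (median -0.52), and 5 fell and 1, Sox10, rose in 2aOKO mice (median -0.53). Pdgfra, the defining marker of the OPC sort, had the most negative difference of these genes in 2afl/fl mice, -0.97 ± 0.20 (SE). All 8 genes of committed oligodendrocytes rose in both genotypes (medians 2 and 2.17), as did all 8 myelin genes (medians 6.57 and 6.35). Of 8 astrocyte genes 3 rose and 0 fell in each genotype, and of 8 endothelial genes 0 passed in either. The part of all these cells in the levels of replication genes was not tested.

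Of the 4 origin licensing genes 2 fell in each genotype. Orc6, a subunit of the origin recognition complex that marks origins, had the highest mean of these 4 genes. In 2afl/fl mice it stood at 1038, 1149 and 918 normalised counts in OPCs and 981, 944 and 748 in O4 cells. The 2aOKO libraries stood at 893, 962, 881 and 954 in OPCs and 850, 889, 796 and 739 in O4 cells. The sorts overlapped in both genotypes, and neither difference passed (-0.22 ± 0.12 and -0.17 ± 0.10, adjusted p = 0.183 and 0.206 in limma). Orc1, the subunit whose human protein comes and goes with the cycle, had 90.7, 98.3 and 81.1 in 2afl/fl OPCs and 82.0, 89.9 and 93.8 in O4 cells. Its 2aOKO libraries had 123, 95.0, 94.8 and 62.0 in OPCs and 99.2, 64.3, 59.1 and 75.8 in O4 cells. These groups overlapped throughout, with differences of -0.02 ± 0.26 and -0.31 ± 0.23 (adjusted p = 0.963 and 0.321). At this low level the errors leave room for changes of the size seen in other members.

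Cdc6, the ATPase that brings the helicase to the origin, fell in both genotypes. It had 568, 708 and 554 in 2afl/fl OPCs and 302, 538 and 248 in O4 cells, and 588, 514, 439 and 549 in 2aOKO OPCs and 393, 310, 200 and 377 in O4 cells. No O4 library reached an OPC library of its genotype, although 2afl/fl O4 library 2 came close. The differences were -0.82 ± 0.27 (adjusted p = 0.0363) and -0.74 ± 0.23 (adjusted p = 0.0237). Cdt1, its partner in loading, fell by 0.65 ± 0.22 and 0.73 ± 0.19. The calls of Cdc6 and Cdt1 in 2afl/fl mice were lost under 7 and 13 of 24 alternatives. The remaining recognition subunits on the comparison list, Orc2, Orc3, Orc4 and Orc5, lay between -0.05 and 0.07 in 2afl/fl and between 0.01 and 0.09 in 2aOKO mice, and none passed.

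All 6 subunits of the replicative helicase fell in both genotypes. Mcm6, the most abundant by count, had 4294, 4498 and 4065 in 2afl/fl OPCs and 2958, 3585 and 2111 in O4 cells. Its 2aOKO counts were 4074, 3951, 3971 and 4010 in OPCs and 2484, 2530, 2134 and 2905 in O4 cells. The OPC libraries were close together and the O4 libraries spread widely below them. Mcm6 fell by 0.60 ± 0.15 (adjusted p = 0.00852) and by 0.68 ± 0.13 (adjusted p = 0.00109). Mcm2, the subunit with the smallest p in 2afl/fl mice, had 3219, 3864 and 3357 in OPCs and 2044, 2963 and 1717 in O4 cells. Its 2aOKO values were 3394, 3090, 3092 and 3170 in OPCs and 2188, 2003, 1653 and 2067 in O4 cells, again without overlap. The differences were -0.67 ± 0.15 (adjusted p = 0.0067) and -0.69 ± 0.13 (adjusted p = 0.00141).

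Mcm3, Mcm4 and Mcm5 fell by 0.52 to 0.64 in 2afl/fl and by 0.50 to 0.75 in 2aOKO mice. Mcm7 fell least, by 0.26 ± 0.09 and 0.22 ± 0.08. Its RNA was at 2576 to 2730 in 2afl/fl OPCs and 1937 to 2504 in O4 cells, and at 2371 to 2504 and 1948 to 2247 in 2aOKO mice, so that these groups too did not overlap. Its calls were lost under 11 and 7 of 24 alternatives. Whether Mcm7 differs from the other subunits was not tested.

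Among the helicase activators, Cdc45, the protein that joins Mcm2-7 and GINS into the working helicase, had the highest mean and, in 2afl/fl mice, the smallest p. It stood at 588, 516 and 590 in 2afl/fl OPCs and 348, 461 and 181 in O4 cells. The 2aOKO OPCs had 559, 510, 420 and 470 and the O4 cells 413, 262, 255 and 345. Groups did not overlap, and 2afl/fl O4 library 3 was by far the lowest. It fell by 0.87 ± 0.27 (adjusted p = 0.0267) and by 0.64 ± 0.23 (adjusted p = 0.0462), the latter call being lost under 12 of 24 alternatives. Mcm10, which helps to open the origin, fell by 0.73 ± 0.23 and 0.80 ± 0.20.

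The GINS subunits were less clear. Gins1 had 310, 311 and 321 in 2afl/fl OPCs and 234, 294 and 156 in O4 cells, and 311, 283, 302 and 360 in 2aOKO OPCs and 226, 156, 151 and 173 in O4 cells. Its groups did not overlap, yet it passed only in 2aOKO mice (-0.51 ± 0.21, adjusted p = 0.0861, and -0.84 ± 0.18, adjusted p = 0.00292). Gins2 had 304, 336 and 279 in 2afl/fl OPCs and 208, 300 and 153 in O4 cells. It had 365, 314, 319 and 269 in 2aOKO OPCs and 227, 249, 206 and 241 in O4 cells. The 2afl/fl sorts overlapped through O4 library 2, and neither difference passed (-0.52 ± 0.20 and -0.45 ± 0.18, adjusted p = 0.069 and 0.0606). Both did with the replicate block within genotype, at adjusted p = 0.0325 and 0.0283.

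Gins3 was the most scattered member. It had 189, 259 and 228 in 2afl/fl OPCs, 129, 202 and 109 in 2afl/fl O4 cells, 178, 266, 148 and 218 in 2aOKO OPCs and 168, 248, 87.5 and 188 in 2aOKO O4 cells. Sorts overlapped in each genotype, with differences of -0.65 ± 0.33 (adjusted p = 0.166, or 0.0234 with the replicate block within genotype) and -0.29 ± 0.29 (adjusted p = 0.491). In 2aOKO mice same-numbered libraries of the 2 sorts were high or low together in Gins3. There library 2 was the highest and library 3 the lowest in both sorts. In 2afl/fl mice library 2 was the highest in both sorts, while the lowest was library 1 in OPCs and library 3 in O4 cells. The fourth GINS subunit, Gins4, was at -0.08 and 0.04 and passed in neither.

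Of the 7 genes for DNA polymerases and primase, 6 fell in each genotype. Pold1, the catalytic subunit of polymerase delta, which copies mainly the lagging strand, had 1435, 1313 and 1427 in 2afl/fl OPCs and 997, 1153 and 742 in O4 cells. Among 2aOKO libraries it had 1286, 1292, 1312 and 1308 in OPCs and 931, 856, 881 and 973 in O4 cells. The gap between the sorts was wider than the spread within either in 2aOKO mice, and in 2afl/fl mice O4 library 2 narrowed it. Pold1 fell by 0.55 ± 0.12 (adjusted p = 0.00554) and 0.51 ± 0.11 (adjusted p = 0.00219). Pole, the catalytic subunit of the leading strand polymerase epsilon, fell by 0.94 ± 0.25 and 0.73 ± 0.21. Its partner Pole2 had 195, 137 and 166 in 2afl/fl OPCs and 93.1, 155 and 85.5 in O4 cells, which overlapped. In 2aOKO mice Pole2 had 161, 181, 197 and 166 in OPCs and 133, 129, 134 and 112 in O4 cells, which did not. It passed in neither (-0.61 ± 0.22 and -0.47 ± 0.19, adjusted p = 0.0526 and 0.0731). The primase subunits Prim1 and Prim2, which lay down RNA primers, fell by 0.76 ± 0.19 and 0.31 ± 0.10 in 2afl/fl and by 0.71 ± 0.16 and 0.32 ± 0.08 in 2aOKO mice. Pola1 and Pola2 of the priming polymerase alpha fell by 0.43 and 0.47, then by 0.50 and 0.38. The accessory delta subunit Pold2, on the comparison list, was at 0.00 ± 0.08 and -0.01 ± 0.07.

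Pcna, the sliding clamp, which holds polymerases on DNA, had 4490, 4542 and 3999 in 2afl/fl OPCs and 3727, 3816 and 3052 in O4 cells. Its 2aOKO libraries had 4036, 3744, 3907 and 3768 in OPCs and 3419, 2828, 2989 and 3144 in O4 cells. All O4 values lay below all OPC values of their genotype, by a small margin, and Pcna fell by 0.30 ± 0.09 (adjusted p = 0.0269) and 0.32 ± 0.08 (adjusted p = 0.00689). Dscc1, of an alternative clamp loader, had 219, 189 and 159 in 2afl/fl OPCs and 118, 90.9 and 66.5 in O4 cells. It had 201, 181, 147 and 153 in 2aOKO OPCs and 120, 135, 116 and 109 in O4 cells. Groups did not overlap in either genotype. Its difference of -1.06 ± 0.22 (adjusted p = 0.0039) was the largest of the members in 2afl/fl mice, and unlike most members its O4 library 2 was not the highest of the group. In 2aOKO mice it was at -0.50 ± 0.19 (adjusted p = 0.0579, or 0.0218 with the replicate block within genotype).

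**Figure D3:**
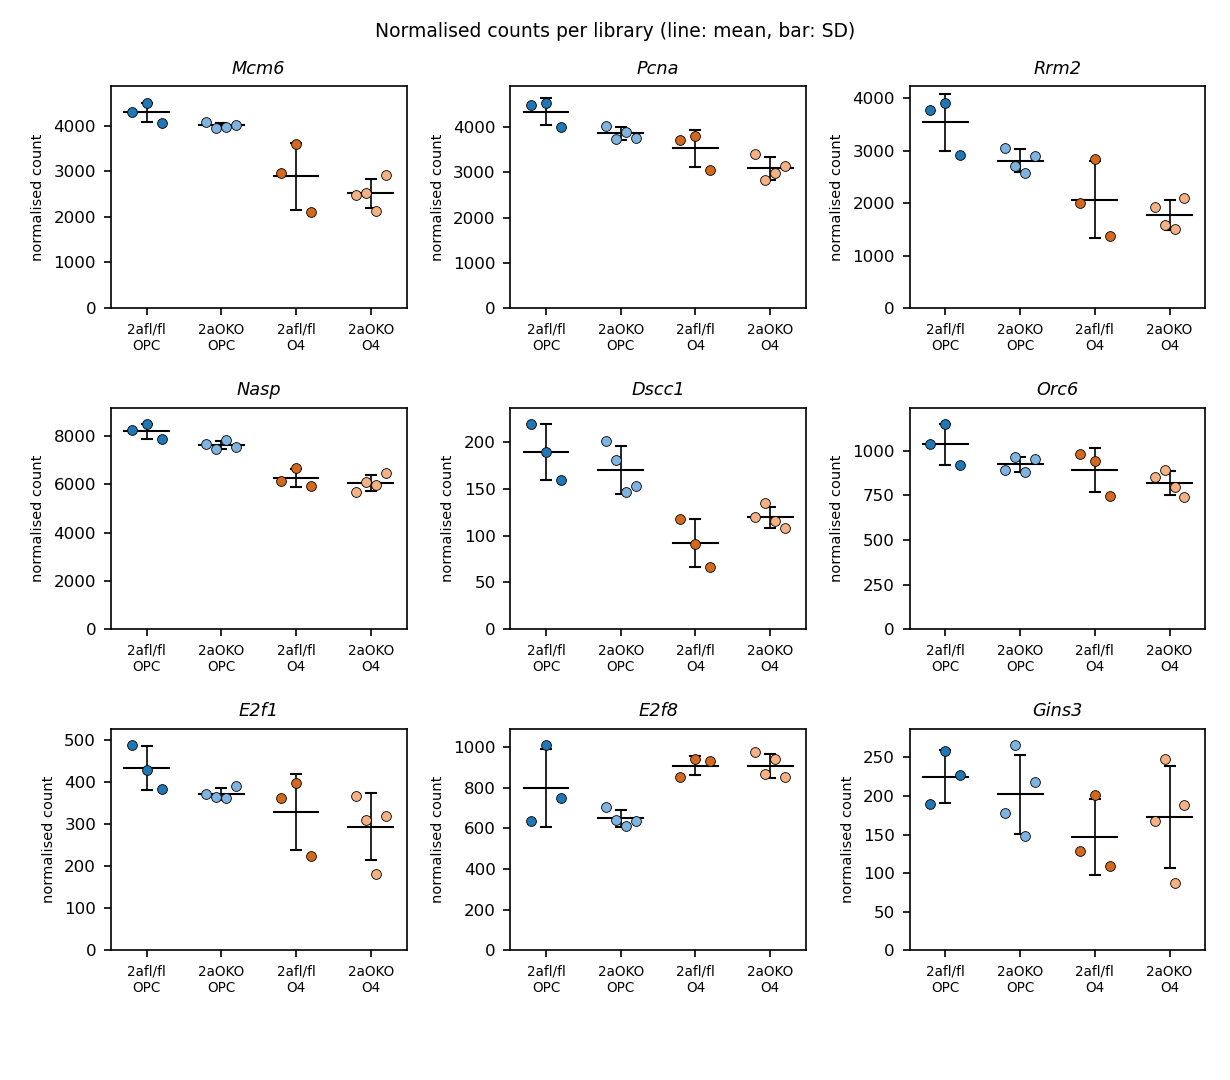
Normalised counts of 9 members in each library, with the group mean (line) and SD (bar), on axes that start at 0. Mcm6, Pcna, Rrm2, Nasp and Dscc1 are lower in O4 cells with no overlap within a genotype, Orc6, E2f1 and Gins3 overlap, and E2f8 is higher in O4 cells of 2aOKO mice.

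Of the replication factor C subunits, which load the clamp, all 4 members fell in 2aOKO mice. Rfc3 and Rfc4 fell in 2afl/fl mice too, by 0.47 and 0.45, then by 0.59 and 0.58. Their 2afl/fl calls were lost under 5 and 10 of 24 alternatives. Rfc2 had 1228, 1474 and 1256 in 2afl/fl OPCs and 1274, 1337 and 1034 in O4 cells, with overlap and no call (-0.12 ± 0.10, adjusted p = 0.402). The 2aOKO libraries had 1284, 1329, 1314 and 1219 in OPCs and 1097, 1100, 1029 and 1093 in O4 cells, with no overlap, and fell by 0.25 ± 0.09 (adjusted p = 0.0369). Rfc5 had 764, 774 and 744 in 2afl/fl OPCs and 608, 707 and 581 in O4 cells, and 689, 714, 702 and 701 in 2aOKO OPCs and 483, 557, 504 and 532 in O4 cells. Its OPC libraries were tightly grouped above the O4 libraries. It was at -0.27 ± 0.10 in 2afl/fl mice (adjusted p = 0.0506, or 0.0471 with the replicate block within genotype) and fell by 0.44 ± 0.08 in 2aOKO mice (adjusted p = 0.00139). The large subunit Rfc1, on the comparison list, was at -0.12 and -0.10 and did not pass.

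At the lagging strand, Lig1, the ligase that seals Okazaki fragments, had 3308, 3132 and 2901 in 2afl/fl OPCs and 1960, 2443 and 1286 in O4 cells. Its 2aOKO counts were 3051, 2791, 2663 and 2619 in OPCs and 1852, 1640, 1454 and 1670 in O4 cells. The sorts were far apart in both genotypes, and Lig1 fell by 0.76 ± 0.17 (adjusted p = 0.00509) and 0.75 ± 0.14 (adjusted p = 0.00137). Fen1, the flap nuclease that trims the fragments, had 1521, 1583 and 1310 in 2afl/fl OPCs and 1366, 1422 and 988 in O4 cells, which overlapped. Its 2aOKO libraries had 1314, 1316, 1247 and 1360 in OPCs and 1138, 1004, 938 and 1062 in O4 cells, which did not. Fen1 was at -0.24 ± 0.12 (adjusted p = 0.175, or 0.0492 with the replicate block within genotype) and fell by 0.34 ± 0.11 in 2aOKO mice (adjusted p = 0.0248).

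Rpa2, the middle subunit of the single strand binding complex, had 1010, 886 and 1031 in 2afl/fl OPCs and 791, 839 and 670 in O4 cells. It had 948, 957, 991 and 867 in 2aOKO OPCs and 643, 597, 491 and 687 in O4 cells. The groups did not overlap, with the wider gap in 2aOKO mice. It was at -0.35 ± 0.13 in 2afl/fl mice (adjusted p = 0.0525) and fell by 0.65 ± 0.11 in 2aOKO mice (adjusted p = 0.000563), the smallest adjusted p of the members there. On the comparison list Rpa1 was at -0.12 in 2afl/fl mice and fell by 0.24 in 2aOKO mice, and Rpa3 was at 0.13 and 0.03 with no call.

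The genes of deoxynucleotide supply included Rrm1, the large subunit of ribonucleotide reductase, which makes deoxynucleotides from ribonucleotides. Rrm1 had 5783, 6059 and 5401 in 2afl/fl OPCs and 3432, 4965 and 3231 in O4 cells, and 5787, 5384, 5126 and 5339 in 2aOKO OPCs and 3985, 3663, 2861 and 3848 in O4 cells. Every O4 library was below every OPC library. Rrm1 fell by 0.59 ± 0.14 (adjusted p = 0.00839) and 0.60 ± 0.12 (adjusted p = 0.00215), and Rrm2, the small subunit made in S phase, by 0.83 ± 0.20 and 0.67 ± 0.18. Tyms, the enzyme of thymidylate synthesis, had 620, 687 and 664 in 2afl/fl OPCs and 548, 606 and 376 in O4 cells. Its 2aOKO values were 654, 677, 596 and 629 in OPCs and 546, 438, 374 and 467 in O4 cells. Sorts did not overlap, by a margin of few counts in 2afl/fl mice. It was at -0.39 ± 0.16 there (adjusted p = 0.0912) and fell by 0.50 ± 0.14 in 2aOKO mice (adjusted p = 0.0146).

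All 7 genes of histone supply, chromatin assembly and DNA methylation upkeep fell in both genotypes. Nasp, a histone chaperone, had the highest mean of all members and the smallest p in 2afl/fl mice. It had 8235, 8499 and 7872 in 2afl/fl OPCs and 6133, 6695 and 5948 in O4 cells. In 2aOKO mice it had 7690, 7453, 7855 and 7539 in OPCs and 5683, 6095, 5984 and 6471 in O4 cells. Libraries of a group differed little, and the sorts were separate in both genotypes. Nasp fell by a modest 0.39 ± 0.07 (adjusted p = 0.00137) and 0.33 ± 0.06 (adjusted p = 0.000794). Larger falls were those of Uhrf1, which brings Dnmt1 to newly copied DNA, at 0.84 ± 0.18 and 0.82 ± 0.15, and of Hells, a remodeller needed for DNA methylation, at 0.72 ± 0.19 and 0.77 ± 0.16. Uhrf1 was the only member called in 2afl/fl mice under all 24 alternatives (adjusted p from 8.65e-05 to 0.0464). Atad2, a bromodomain protein of replicating chromatin, fell by 0.80 and 0.84, and Chaf1a and Chaf1b, which place histones behind the fork, by 0.50 and 0.71, then by 0.56 and 0.69. Slbp, which binds the stem loop of histone messenger RNAs, fell by 0.36 and 0.30. Dnmt1, the maintenance methyltransferase on the comparison list, fell by 0.47 ± 0.10 and 0.45 ± 0.09.

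**Figure D4:**
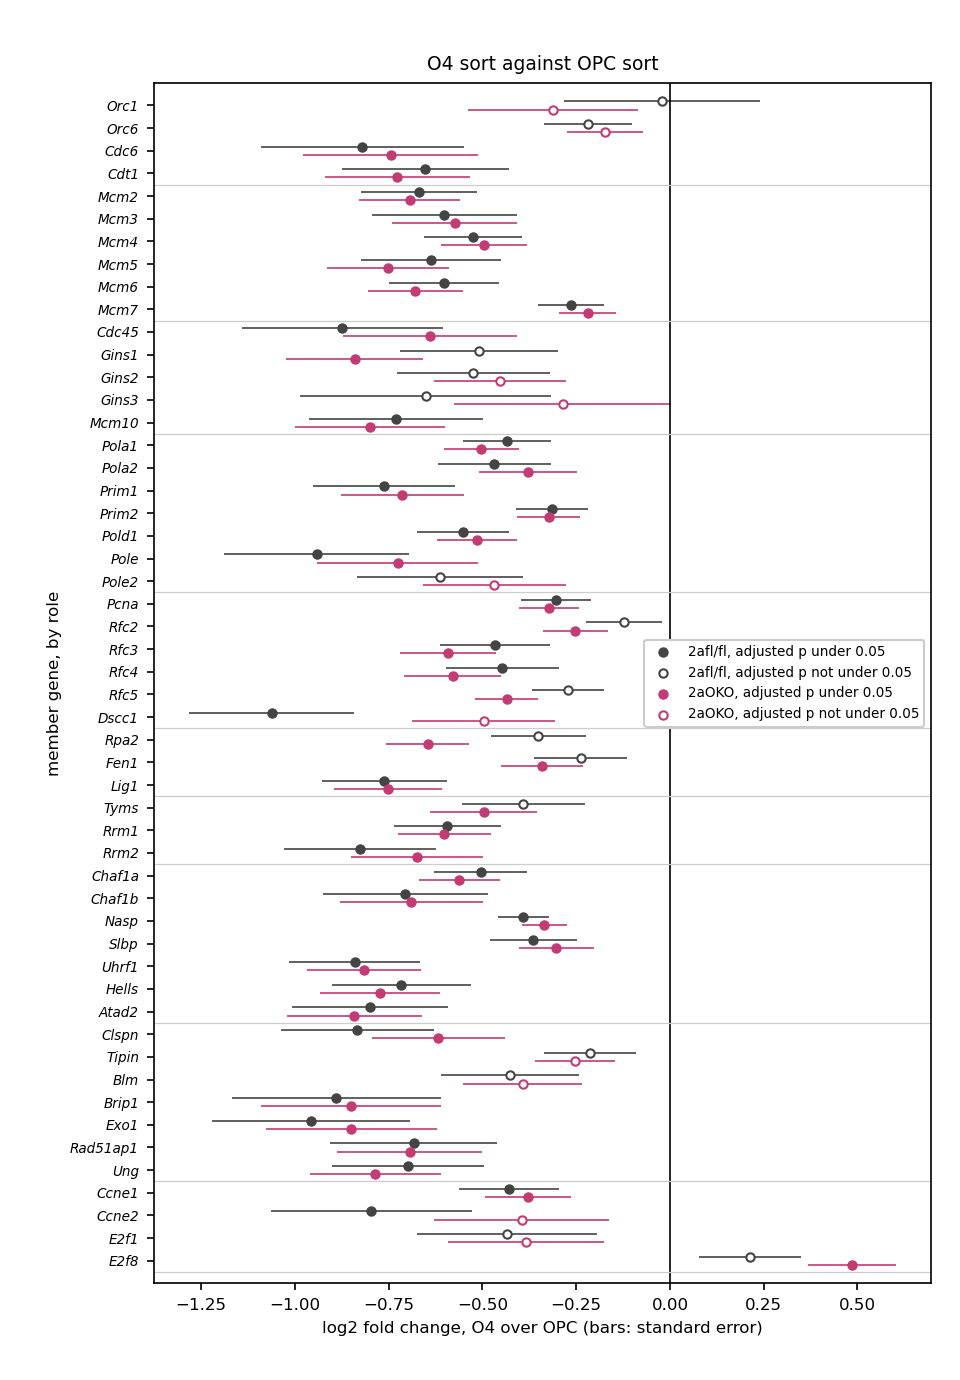
Log2 fold change of each member, O4 over OPC, in 2afl/fl (grey) and 2aOKO mice (pink), with standard errors as bars, members by role. Filled points have an adjusted p under 0.05. Nearly all points lie left of 0, from -1.06 (Dscc1) upwards, and E2f8 lies right of it at 0.21 and 0.48.

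Among genes of the fork checkpoint and repair, Clspn, an adaptor that lets the checkpoint kinase Chek1 be activated, had 1018, 1173 and 1034 in 2afl/fl OPCs and 542, 898 and 448 in O4 cells. It had 849, 890, 792 and 898 in 2aOKO OPCs and 583, 546, 439 and 692 in O4 cells. No group overlapped the other sort, and 2afl/fl O4 library 2 was again the high one. Clspn fell by 0.83 ± 0.20 (adjusted p = 0.00914) and 0.62 ± 0.18 (adjusted p = 0.0147). Tipin, of the complex that protects stalled forks, had the highest mean of this group and did not pass. It had 1254, 1172 and 1085 in 2afl/fl OPCs and 1074, 1094 and 870 in O4 cells, and 1245, 1151, 949 and 974 in 2aOKO OPCs and 967, 917, 801 and 925 in O4 cells. Sorts overlapped in both genotypes, at -0.21 ± 0.12 (adjusted p = 0.219) and -0.25 ± 0.11 (adjusted p = 0.0823, or 0.0228 with the replicate block within genotype). Its partner Timeless, on the comparison list, fell by 0.53 ± 0.16 and 0.66 ± 0.14.

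Blm, the helicase mutated in Bloom syndrome in humans, had 628, 624 and 481 in 2afl/fl OPCs and 363, 617 and 346 in O4 cells. Its 2aOKO libraries had 653, 599, 547 and 603 in OPCs and 454, 442, 433 and 501 in O4 cells. The sorts overlapped in 2afl/fl mice through O4 library 2 and did not in 2aOKO mice. Blm passed in neither (-0.43 ± 0.18 and -0.39 ± 0.16, adjusted p = 0.0989 and 0.0705), and in both with the replicate block within genotype (adjusted p = 0.0351 and 0.0232). Exo1, a nuclease of mismatch repair, fell by 0.96 ± 0.26 and 0.85 ± 0.23. Brip1, a helicase of crosslink repair, fell by 0.89 ± 0.28 and 0.85 ± 0.24. Rad51ap1, which acts in homologous recombination, and Ung, which removes uracil from DNA, fell by 0.68 and 0.70 in 2afl/fl and by 0.69 and 0.79 in 2aOKO mice.

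Of the 4 regulators of the G1 to S step 2 fell in 2afl/fl mice, and 1 fell and 1 rose in 2aOKO mice. Ccne1, a cyclin that drives entry into S phase with Cdk2, had 505, 537 and 497 in 2afl/fl OPCs and 431, 398 and 322 in O4 cells. It had 500, 486, 419 and 481 in 2aOKO OPCs and 417, 332, 336 and 369 in O4 cells. Sorts did not overlap, although 2aOKO OPC library 3 and O4 library 1 nearly met. Ccne1 fell by 0.43 ± 0.13 (adjusted p = 0.0283) and 0.38 ± 0.12 (adjusted p = 0.0205). Ccne2, the related cyclin, had 220, 399 and 335 in 2afl/fl OPCs and 123, 291 and 155 in O4 cells. In 2aOKO mice it had 244, 282, 263 and 246 in OPCs and 207, 208, 207 and 167 in O4 cells. In 2afl/fl mice the sorts overlapped, while same-numbered libraries kept their order, and it fell by 0.80 ± 0.27 (adjusted p = 0.0406), a call lost under 12 of 24 alternatives. In 2aOKO mice it was at -0.40 ± 0.23 (adjusted p = 0.213, or 0.0385 with the replicate block within genotype).

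E2f1, an activator of this gene programme, had 488, 428 and 385 in 2afl/fl OPCs and 362, 397 and 226 in O4 cells. It had 371, 364, 361 and 392 in 2aOKO OPCs and 368, 310, 181 and 319 in O4 cells. The sorts overlapped in both genotypes, and neither difference passed (-0.43 ± 0.24 and -0.38 ± 0.21, adjusted p = 0.198 and 0.173). E2f8, an atypical E2F that represses E2F targets, ran the other way. It had 633, 1008 and 749 in 2afl/fl OPCs and 854, 938 and 932 in O4 cells. Among 2aOKO libraries it had 707, 641, 611 and 634 in OPCs and 976, 865, 938 and 852 in O4 cells. The 2afl/fl OPC library 2 was above all others, so that the 2afl/fl sorts overlapped, whereas all 2aOKO O4 libraries were above all 2aOKO OPC libraries. E2f8 rose in 2aOKO mice, by 0.48 ± 0.12 (adjusted p = 0.00575, from 0.000512 to 0.0308 over 24 alternatives), and was at 0.21 ± 0.14 in 2afl/fl mice (adjusted p = 0.267, or 0.026 at 0.40 without OPC library 2). The related repressor E2f7, on the comparison list, was at -0.69 ± 0.27 (adjusted p = 0.0662) and fell in 2aOKO mice by 0.77 ± 0.23 (adjusted p = 0.0176). The activator E2f3 was at 0.27 ± 0.10 and rose in 2aOKO mice by 0.39 ± 0.09 (adjusted p = 0.00381).

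Of the 48 further replication and S phase genes on the comparison list, 17 fell and 0 rose in 2afl/fl mice (median -0.31), and 25 fell and 2 rose in 2aOKO mice (median -0.30). By smallest p in 2afl/fl mice they were led by Cdc7, the kinase that fires origins (-0.56 ± 0.12), Dnmt1, Wdhd1, which ties helicase to polymerase (-0.82 ± 0.19), and Chek1, the checkpoint kinase (-0.78 ± 0.19). E2f3 and Rnaseh2b, a subunit of the nuclease that removes ribonucleotides, were the genes that rose in 2aOKO mice.

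The comparison of genotypes asks whether loss of Mfsd2a goes with a change of these genes within a sort. In OPCs no member passed an adjusted p of 0.05, and neither did any other gene (0%). In 2aOKO OPCs 47 of 52 members had a lower mean than in 2afl/fl OPCs, against 50.7% of all genes, with a median log2 difference of -0.12 (0.919-fold) against -0.00 over all genes. At an unadjusted p under 0.05 there was 1 member, against 1.61% of genes. The 4 2aOKO libraries lay below the 3 2afl/fl libraries without overlap in 9 members (Mcm4, Mcm5, Mcm7, Pola2, Pold1, Rfc5, Chaf1b, Nasp and Clspn), against 2.87% of genes. Members were counted as lower by their means, and since they move together from library to library they are not independent. Without 2afl/fl OPC library 2 the median was -0.08 and 43 members were lower. The G2 and mitosis genes were lower in 30 of 30, with a median of -0.10. Of the markers of other cells, fibroblast genes were lower in 5 of 6 (median -0.26, summed level 24501 to 31258 against 29719 to 40352), border macrophage genes in 5 of 6 (-0.32, 249 to 338 against 258 to 327), and astrocyte genes were higher in 8 of 8 (0.13, 45700 to 47791 against 41923 to 46601). Their part in the members' differences was not tested.

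The 3 members with the smallest p in OPCs were E2f8, Pcna and Chaf1b. E2f8 was at 707, 641, 611 and 634 in 2aOKO OPCs against 633, 1008 and 749 in 2afl/fl OPCs, which overlapped, with a difference of -0.27 ± 0.13 (unadjusted p = 0.0489 in limma, adjusted p = 1). Without 2afl/fl OPC library 2 it was at -0.09. Pcna, whose 2aOKO values of 3744 to 4036 overlapped the 2afl/fl range of 3999 to 4542, was at -0.17 ± 0.09 (unadjusted p = 0.0751). Chaf1b had 456, 384, 407 and 410 against 519, 603 and 504, with no overlap, a difference of -0.38 ± 0.21 (unadjusted p = 0.0809).

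**Figure D5:**
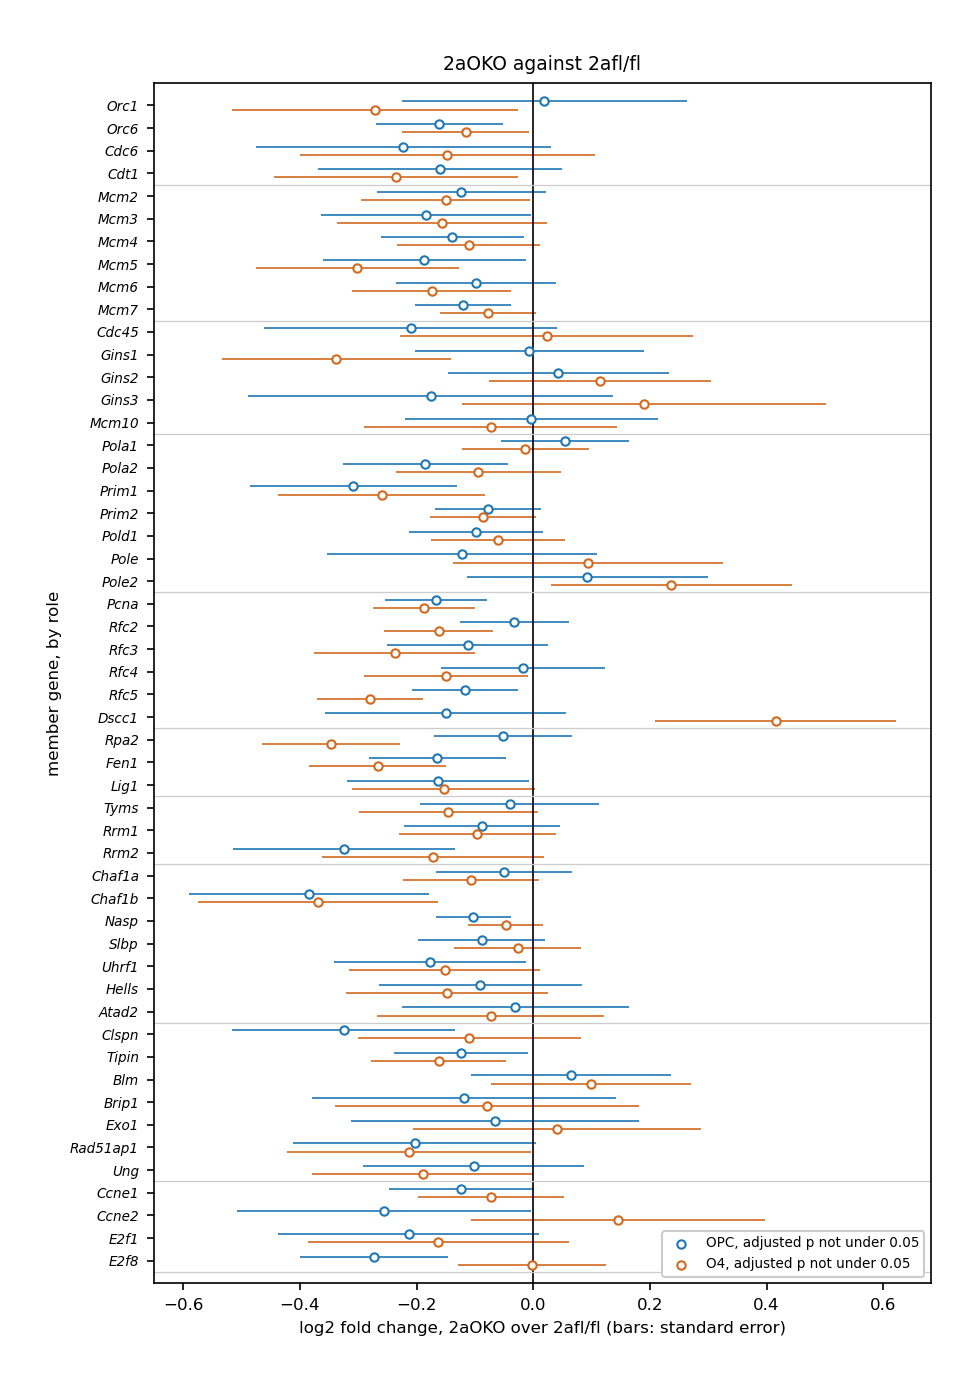
Log2 fold change of each member, 2aOKO over 2afl/fl, in OPCs (blue) and O4 cells (orange), with standard errors as bars. All points are open because no adjusted p was under 0.05. Most lie slightly left of 0, between -0.38 (Chaf1b) and 0.09 (Pole2) in OPCs and between -0.37 (Chaf1b) and 0.42 (Dscc1) in O4 cells.

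In O4 cells 43 of 52 members had a lower mean in 2aOKO mice, against 50.6% of genes, with a median of -0.13 (0.913-fold). No gene passed an adjusted p of 0.05 (0%), 4 members had an unadjusted p under 0.05 against 2.89% of genes, and in 1 member, Rfc5, the groups did not overlap, against 1.53%. The direction rested on 1 library. Without 2afl/fl O4 library 2, the library with few myelin transcripts, the median was 0.03 and 19 members were lower. Without 2afl/fl O4 library 3, the library with the most, it was -0.28, against -0.0007 over all genes. In that fit 24 members had an unadjusted p under 0.05 and 0 an adjusted one. Over all genes 4 passed an adjusted p of 0.05, and the share at an unadjusted p was not counted.

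Rfc5 had the smallest p in O4 cells, with 483, 557, 504 and 532 in 2aOKO against 608, 707 and 581 in 2afl/fl mice, at -0.28 ± 0.09 (unadjusted p = 0.00757 in limma, adjusted p = 0.999). Rpa2, with 643, 597, 491 and 687 against 791, 839 and 670, overlapped at 1 library on each side and was at -0.35 ± 0.12 (unadjusted p = 0.0103). Fen1, with 1138, 1004, 938 and 1062 against 1366, 1422 and 988, was at -0.27 ± 0.12 (unadjusted p = 0.0377). Without 2afl/fl O4 library 2, whose member level was the highest, the differences of these genes kept their sign. Markers of other cells moved as well in 2aOKO O4 cells, none at an adjusted p under 0.05. Endothelial genes were lower in 8 of 8 (median -0.25, summed level 16741 to 29276 against 20162 to 39195), pericyte genes in 5 of 5 (-0.23, 14319 to 22838 against 17300 to 24377) and fibroblast genes in 6 of 6 (-0.15, 8887 to 16684 against 11657 to 17886). Myelin genes were lower in 6 of 8, microglia genes in 8 of 10 and border macrophage genes in 5 of 6. Genes of committed oligodendrocytes were higher in 8 of 8 (0.24) and astrocyte genes in 8 of 8 (0.11), and the summed levels of all these lists overlapped between the genotypes. Their part in these differences was not tested.

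The genotype effect was not shown to differ between the sorts. Of the members 24 had a more negative effect in O4 cells and 28 a less negative one, with a median of 0.02. None passed an adjusted p of 0.05 (0% of genes did) and 0 had an unadjusted p under 0.05, against 0.848% of genes. Dscc1, the member with the smallest p, differed by 0.57 on the log2 scale (-0.15 in OPCs and 0.42 in O4 cells, adjusted p = 1 in limma). Rpa2 followed at -0.30 and E2f8 at 0.27. Without 2afl/fl O4 library 2 the median of this difference was 0.19 with 8 members negative, and without 2afl/fl O4 library 3 it was -0.15 with 45 negative.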

How the data were processed

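Total RNA (900 ng per library, per the labels) of cells sorted on microbeads was sequenced, and per the submitters' notes and the methods of the study reads were aligned with STAR 2.7.8a (build mm39), assigned to RefSeq genes and scaled with Partek Flow 10. As deposited, the signal values are counts divided by a median-ratio size factor per library. They are not scaled to gene length, so levels were not compared between genes. Depth is known only as normalised totals. Whole reads were not recovered from these values, so count models were not used. The authors' tables of differential expression (fold changes and p-values) were not used.

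Values were transformed as log2(value + 1). limma 3.58.1 in R 4.3.3 was run on all 14 libraries at once, with a mean for each group and a variance trend over intensity, for the 15565 of 18355 genes whose mean reached 10, with two-sided tests and Benjamini-Hochberg adjustment over these genes. Fold changes of low genes are understated on this scale. The script was tested on simulated data with independent libraries and the same spread setting in every group. That test does not cover paired libraries or groups of unequal spread. Motifs were searched and figures drawn with Python 3.11.15. Same-numbered libraries of the sorts deviated together (every correlation of deviations from group means between 0.16 and 0.328, those of different numbers at most 0.0075). The labels do not say whether they share a mouse, so this pairing comes from the data. The main fit did not use this pairing. Each of its p-values sets a difference against the spread between these libraries, pooled over the 4 groups.

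Members and gene lists were chosen with earlier results of these data known. Values per library are given for the member of each role with the highest mean and with the smallest p, and for members that did not pass in both genotypes. Other genes were named by smallest p or as the partner subunits of a member, the latter after their values were seen. Alternatives were the pseudocount, the filter, the scaling, the trend, the libraries fitted, replicate blocks and leaving out each library.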

Additional observations from a re-analysis of the deposited data

Results flagged for a closer look

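Of 106 groups of 4 values examined (52 members and their mean level in both 2aOKO groups), 5 held a library set apart from the other 3, close to the 1 in 20 that chance flags. In 2aOKO OPCs these were Mcm4 in library 3, at 2651 against 2744 to 2758, Pole in library 2, at 1062 against 1231 to 1256, and Rfc4 in library 3, at 383 against 495 to 506. In 2aOKO O4 cells they were Rfc2 in library 3, at 1029 against 1093 to 1100, and Ccne2 in library 4, at 167 against 207 to 208. In each the lone value was the lowest. The causes were not tested.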

How the results depend on the processing

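The members' medians between the sorts stayed below 0 under every alternative run, and no member that was called in either sort comparison changed sign. The count of members that fell in 2afl/fl mice was 1 with only the libraries of the groups compared, where 1.41% of all genes fell. In 2aOKO mice it was 46 in that setting, against 19.6% of all genes. The SD of the members' mean level between libraries was 0.349 in 2afl/fl O4 cells and 0.0802 in 2afl/fl OPCs. In 2aOKO mice this SD was 0.156 in O4 cells and 0.0498 in OPCs. The main fit shares a spread per gene over all 4 groups. When a library was left out the 2afl/fl count ran from 14, with 8.27% of all genes falling, to 44, with 18.3%. The count that rose there ran from 0 to 1, and the median from -0.78 to -0.39. In 2aOKO mice 29 to 44 fell, with 11.7% and 17.4% of all genes falling in those fits. Members under an unadjusted p of 0.05 between genotypes in OPCs numbered 0 after scaling to library totals, 0 without the trend, 11 with only the libraries compared, 4 with the replicate block, and 0 to 4 with a library left out. In O4 cells they numbered 2 after scaling to totals, to upper quartiles or with only the libraries compared, 8 with the replicate block, and 2 to 24 with a library left out, the median running from -0.28 to 0.03. For the difference between sorts they numbered 1 without the trend, 1 with either replicate block, and 0 to 4 with a library left out. No member passed an adjusted p between genotypes under any of these settings. The share of all genes at an unadjusted p under 0.05 was counted only in the main fit, so these counts have no share beside them.

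With the replicate block within genotype 42 and 46 members fell between the sorts, against 16.3% and 19.1% of all genes. The p-values of this block are given above only for members that it added. Orc1, Orc6, Pole2 and E2f1 still did not pass in either genotype. Neither did Gins1, Rfc2, Rpa2, Tyms, Tipin and E2f8 in 2afl/fl mice, nor Gins3 in 2aOKO mice. Across genotypes the correlations of same-numbered OPC libraries ran from 0.0851 to 0.24, above those of different numbers (-0.142 to 0.0393). In O4 cells the ranges overlapped, at 0.0655 to 0.299 and -0.271 to 0.235. What same-numbered libraries share across genotypes was not tested. A block on the number alone gave 41 and 45 members falling, against 15.4% and 18.5% of all genes. Scaling to library totals lowered the median of all genes between the sorts to -0.12 and -0.13 and the members' medians to -0.69 and -0.68. With it 40 and 46 members fell, against 19.1% and 23.8% of all genes. E2f8 rose in 2aOKO mice there too. Uncalled members whose sign differed under an alternative were Orc1 in 2afl/fl mice (-0.13 to 0.04) and Gins3 in 2aOKO mice (-0.49 to 0.01). With the core of the E2F motif, without its leading T, 68.3% of the members had a match, against 18.6% of tested genes.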
